A study of Mus musculus with 4 samples.

Results

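Transcript levels of the genes of glycolysis, pyruvate metabolism and the pentose phosphate pathway were compared in a mouse cancer cell line with and without induction of a chemokine. Members were the rows of the deposited TPM table whose symbol equals one of 39 gene names, and all 39 were found among 22186 listed genes. These names, and the other gene lists below, were chosen with earlier results of these data known. Shares set beside all genes tested are therefore descriptions. TPM is a length-scaled share of all transcripts in a library, so levels can be compared between genes. The cells were MC38, a mouse line labelled as colon cancer cells, with the genotype TetOn-CXCL14: a stably transfected plasmid that makes the secreted chemokine CXCL14 when doxycycline, a tetracycline antibiotic, is present. The 2 control cultures received the solvent PBS and the 2 treated cultures 1 µg/mL doxycycline. All 4 cultures had the plasmid and grew for 72 h before harvest, and the submitters describe the samples within a group as biological replicates. Whether the line is 1 clone or a pool is not stated in the sources used here. Cells without the plasmid are not among these samples, so an action of doxycycline itself cannot be told apart from one of the chemokine.

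Glycolysis turns glucose into pyruvate in the cytosol. Pyruvate is then either reduced to lactate, which leaves the cell through monocarboxylate transporters, or oxidised by the pyruvate dehydrogenase complex in mitochondria, which pyruvate dehydrogenase kinases switch off. The pentose phosphate pathway branches off at glucose 6-phosphate: its oxidative arm makes NADPH and its non-oxidative arm exchanges sugar phosphates for nucleotide synthesis. Many tumour cells run glycolysis to lactate at a high rate even with oxygen present, and the transcription factors HIF-1 and MYC are known to act on many of these genes.

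Most members were lower after doxycycline. Of 39 members, 35 averaged 1 TPM or more across all libraries and were tested with limma, a linear model that shares the estimate of spread across genes. At a Benjamini-Hochberg adjusted p under 0.05 over all genes tested, 25 of 35 members fell and 5 rose. Over all 11359 genes tested 35.4% fell and 29.0% rose, so in this comparison 71.4% of the members tested fell beside a background of 35.4%, and 14.3% rose beside 29.0%. In either direction 30 of 35 members were called, beside 64.4% of all genes tested. The members' median log2 change was -0.52, against -0.043 over all genes tested. The smallest two-sided p that an exact permutation of 2 against 2 libraries allows is 0.33, so the calls depend on limma's shared estimate. The groups did not overlap for 33 of 35 members, beside 82.7% of all genes tested. In the plot of all genes tested, the members lie mostly on the left of the distribution.

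**Figure D1:**
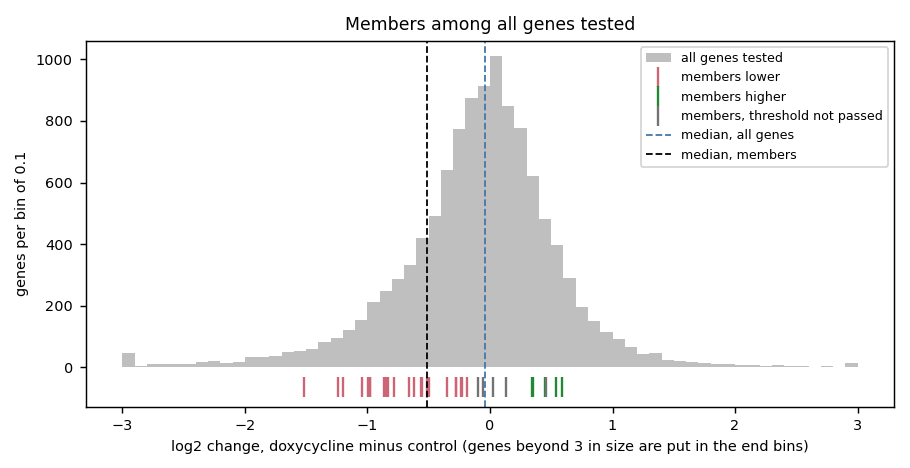
Histogram of the log2 change (doxycycline minus control, on log2(TPM + 1)) of all 11359 genes tested, with each tested member as a tick under it and the medians as dashed lines. Ticks of the 25 members that fell reach from -0.19 to -1.52, and those of the 5 that rose from 0.34 to 0.59.

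The members together made up a smaller part of the transcripts after doxycycline. Their summed level was 21981 and 20892 TPM without doxycycline and 16451 and 15891 TPM with it, a ratio of 0.754. Both treated libraries lay below both controls. Pkm, Gapdh, Eno1 and Ldha, all among the 50 most abundant genes tested, held 62.1% to 67.3% of that sum in the 4 libraries. In bulk samples such as these, fewer cells of a type and less RNA per cell cannot be told apart.

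Some checks of the whole series bear on these values. Cxcl14 stood at 27.3 and 29.2 TPM without doxycycline and 385 and 391 TPM with it, which goes with the labels. The deposited tables hold no read counts, which leaves sequencing depth unknown. All 10 epithelial markers examined, Epcam, Krt8 and Krt18 among them, had a mean below 1 TPM, and Cdh1, Krt19 and Cdx2 were listed at 0 in all 4 libraries, so these markers do not show an epithelial cell. Of 8 fibroblast markers, 5 were above that level, and their summed level was 4053 and 4205 TPM without doxycycline and 909 and 823 TPM with it, most of it Dcn. Of 10 macrophage markers, 7 were below 1 TPM, Laptm5, C1qa and C1qc were at 0 in every library, and the sum went from 48.0 and 46.8 to 13.5 and 15.5 TPM, led by Cd14. The 5 erythroid markers summed to below 1 TPM in every library. Of the fibroblast markers tested, Dcn, Col3a1, Pdgfra and Pdgfrb passed as lower, and Col1a1 did not pass (log2 change 0.15, limma adjusted p = 0.52). Of the macrophage markers tested, Cd14 and Cd68 passed as lower, and Lyz2 did not pass (-0.063, limma adjusted p = 0.76). The part of the markers that fell in the results on the members was not tested.

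**Figure D2:**
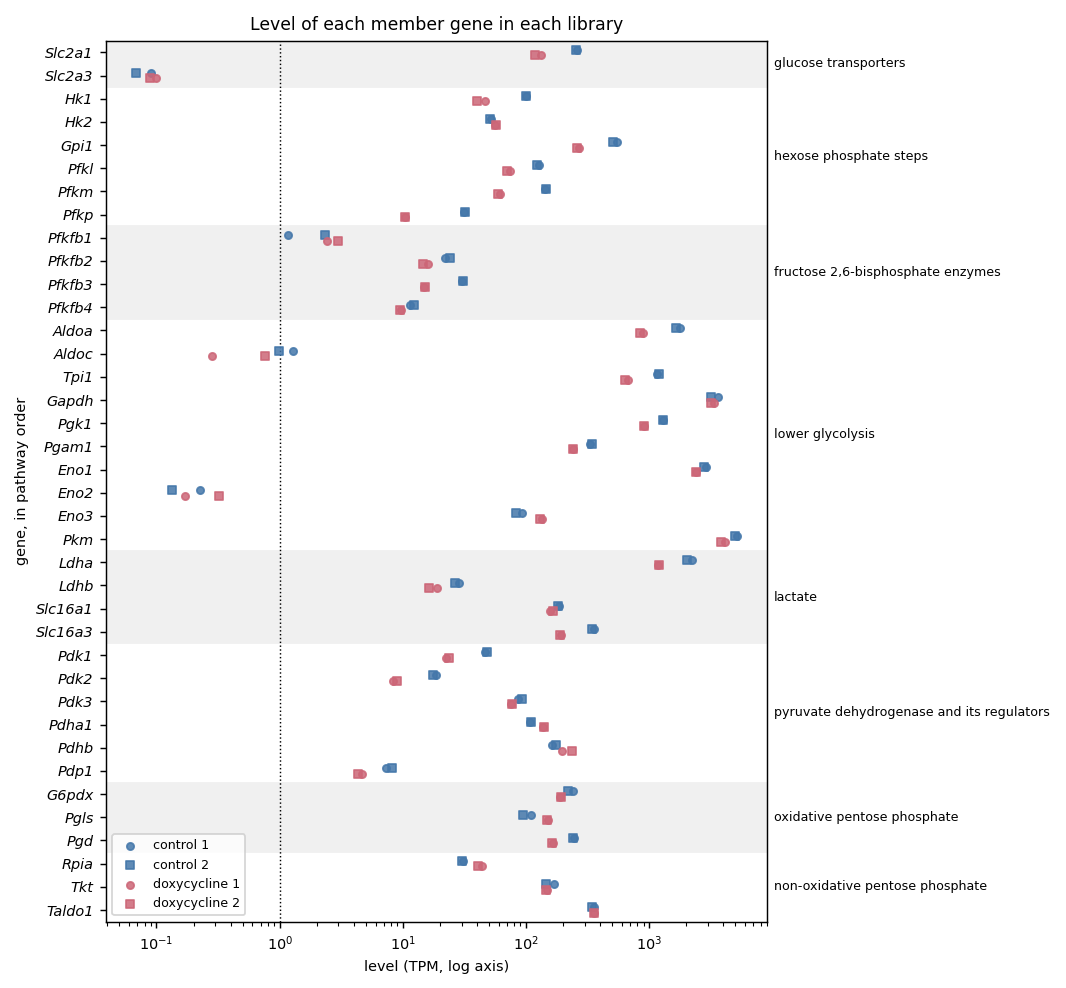
Level of each member in each library (TPM, log axis), in pathway order with the role of each block at the right, controls in blue and doxycycline in red, and a dotted line at 1 TPM. Pdk4, listed at 0 in every library, is not drawn, and Slc2a3, Aldoc and Eno2 have means left of the line.

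Glucose enters these cells through facilitative transporters of the SLC2 family. Slc2a1, which encodes the widely expressed transporter GLUT1, stood at 259 and 255 TPM without doxycycline and 131 and 117 TPM with it (log2 change -1.05, SE 0.07, limma adjusted p = 1.7e-06). Both treated libraries held less than any control library, at 0.483 of the control mean. Slc2a3, which encodes the neuronal-type transporter GLUT3, was close to 0 throughout, at 0.0896 and 0.0685 TPM without doxycycline and 0.0995 and 0.0880 TPM with it, and was not tested. Slc2a1 thus made up over 99.9% of the summed level of this pair in every library.

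Hexokinases phosphorylate glucose and so trap it in the cell. Hk1 fell from 100.2 ± 0.393 to 43.3 ± 4.49 TPM (SD, n = 2), with libraries at 99.9 and 100.5 TPM without doxycycline and 46.5 and 40.1 TPM with it (log2 change -1.20, SE 0.08, limma adjusted p = 1.7e-06). Hk2, the hexokinase usually described as inducible in tumours, stood at 51.8 and 50.6 TPM without doxycycline and 55.6 and 57.0 TPM with it and did not pass the threshold (log2 change 0.13, SE 0.06, limma adjusted p = 0.095, 95% interval -0.011 to 0.28). It passed as higher under median-of-ratios scaling (adjusted p = 0.021, log2 change 0.20), and its adjusted p over the alternatives ran from 0.021 to 0.34. The 2 hexokinase genes changed places in order of level: of their summed TPM, Hk1 supplied 65.8% and 66.5% without doxycycline and 45.5% and 41.3% with it. Such a share compares genes within a library and does not depend on how libraries are scaled. Ratios of 2 members within a library share that property, and the pairs given were chosen after their values were seen. The ratio of Hk1 to Hk2 was 1.93 and 1.99 without doxycycline and 0.836 and 0.704 with it, with no overlap between the groups.

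Glucose 6-phosphate isomerase and phosphofructokinase carry the sugar to fructose 1,6-bisphosphate. Gpi1, the isomerase, stood at 543 and 505 TPM without doxycycline and 269.5 and 259 TPM with it (log2 change -0.99, SE 0.06, limma adjusted p = 1.6e-06). Phosphofructokinase, the main control point of glycolysis, is a tetramer built from the subunits encoded by Pfkl, Pfkm and Pfkp, named for liver, muscle and platelet. All 3 subunit genes fell, each with both treated libraries below both controls. Pfkp showed the largest fall of all members tested, from 31.6 and 31.9 TPM without doxycycline to 10.4 and 10.5 TPM with it (log2 change -1.52, SE 0.08, limma adjusted p = 5.1e-07). Pfkm stood at 143 and 145 TPM without doxycycline and 61.8 and 59.3 TPM with it (log2 change -1.24, SE 0.06, limma adjusted p = 3.1e-07). Pfkl fell by less, with 127 and 123 TPM without doxycycline and 74.5 and 69.5 TPM with it (log2 change -0.78, SE 0.06, limma adjusted p = 6.5e-06). Their summed level went from 301 and 300.0 to 147 and 139 TPM. Of that sum, the liver-type subunit gene supplied 42.1% and 40.9% without doxycycline and 50.8% and 49.9% with it, so Pfkl passed Pfkm as the most abundant of the 3. Pfkm, Pfkp, Hk1 and Slc2a1 were the 4 members that fell by at least 1 on the log2 scale, which is 11.4% of the members tested beside 7.76% of all genes tested.

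The bifunctional PFKFB enzymes make and break fructose 2,6-bisphosphate, the strongest activator of phosphofructokinase. Of the 4 genes, 3 fell and 0 rose. Pfkfb3, whose product has high kinase activity and favours glycolysis, had 30.2 and 30.9 TPM without doxycycline and 14.8 and 15.2 TPM with it (log2 change -0.98, SE 0.08, limma adjusted p = 6.0e-06). Pfkfb2, the isoform known from heart, had 22.04 and 24.1 TPM without doxycycline and 16.1 and 14.6 TPM with it (log2 change -0.56, SE 0.09, limma adjusted p = 5.4e-04). In both genes the treated libraries lay below the controls, and Pfkfb3 went from 45.5% ± 1.61 to 35.2% ± 1.08 (SD, n = 2) of the family's summed TPM. Pfkfb4 fell from 11.3 and 12.3 TPM without doxycycline to 9.58 and 9.49 TPM with it (log2 change -0.28, SE 0.10, limma adjusted p = 0.030). That call was lost with control replicate 2 left out (adjusted p = 0.13), DOX replicate 1 left out (0.091) or DOX replicate 2 left out (0.11), with no filter (0.069), under median-of-ratios scaling (0.078) and under quantile normalization (0.59, log2 change -0.061), with adjusted p from 0.018 to 0.59 over the alternatives. Pfkfb1, the liver isoform, lay lowest of the tested members at 1.16 and 2.32 TPM without doxycycline and 2.42 and 2.97 TPM with it and did not pass (log2 change 0.46, SE 0.21, limma adjusted p = 0.083, 95% interval -0.018 to 0.94). Its value turned on control replicate 2, without which it passed as higher (log2 change 0.77, adjusted p = 0.014), while without control replicate 1 the log2 change was 0.15 (adjusted p = 0.48). It also passed under quantile normalization (adjusted p = 0.012) and over the alternatives ran from 0.012 to 0.48.

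**Figure D3:**
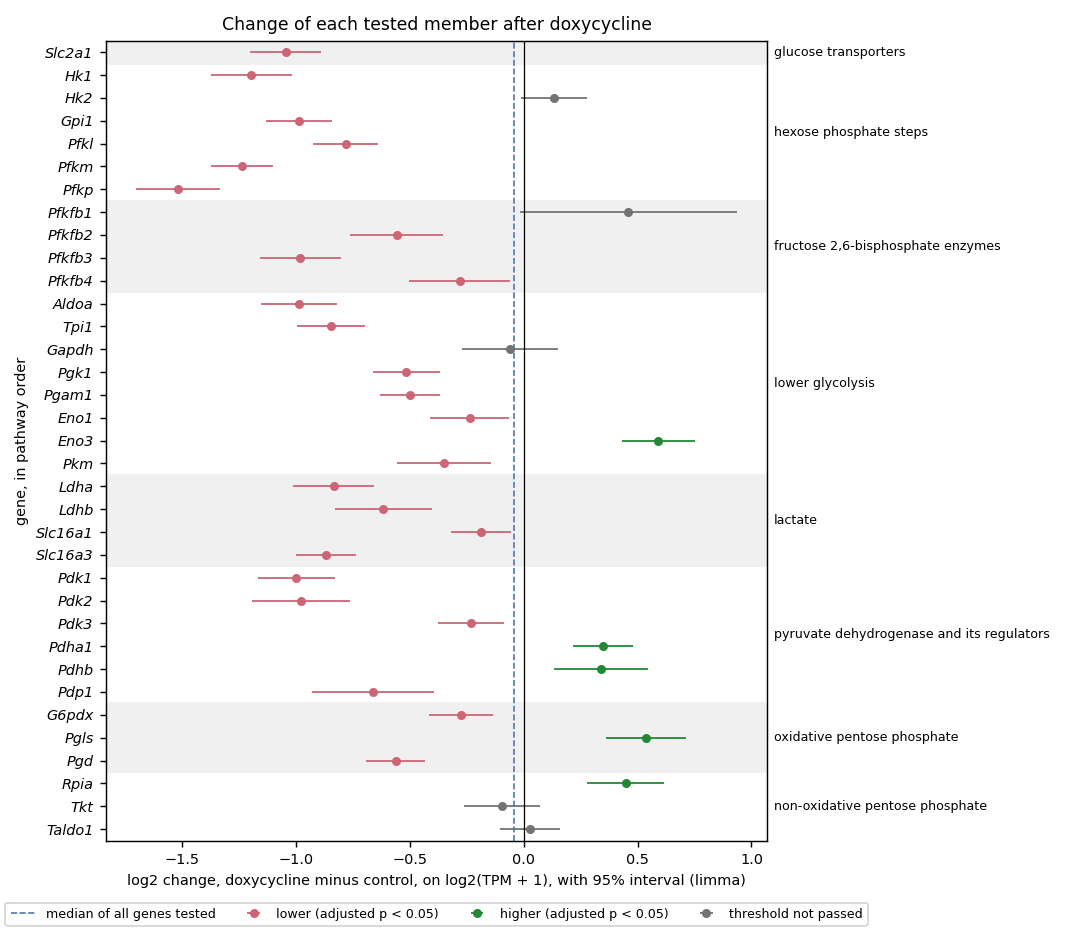
Log2 change of each of the 35 tested members (doxycycline minus control, on log2(TPM + 1)), with its 95% interval from limma, in pathway order, and the median of all genes tested as a dashed line. Red points passed as lower (25), green as higher (5) and grey did not pass (5).

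The lower part of glycolysis, from aldolase to pyruvate kinase, holds the most abundant members. Aldoa, which encodes the aldolase that splits fructose 1,6-bisphosphate, fell from 1772 and 1649 TPM without doxycycline to 892 and 833 TPM with it (log2 change -0.99, SE 0.07, limma adjusted p = 3.9e-06). Tpi1, which encodes the isomerase of the 2 triose phosphates, fell from 1145 and 1196 TPM without doxycycline to 668 and 634 TPM with it (log2 change -0.85, SE 0.07, limma adjusted p = 5.2e-06). The treated means of Aldoa and Tpi1 were 0.504 and 0.556 of the control means. Gapdh, the next enzyme and a common reference gene, did not pass: it stood at 3621 and 3195 TPM without doxycycline and 3364 and 3163 TPM with it, with overlapping groups (log2 change -0.061, SE 0.09, limma adjusted p = 0.59, 95% interval -0.27 to 0.15). Its sign turned under median-of-ratios scaling (log2 change 0.0083) and without control replicate 1 (0.030). Gapdh also has 46 pseudogenes in GENCODE M21 with at least 97% identity over 100 bases or more, so its level, and ratios to it, are uncertain where reads could be split among copies. By the same measure Pgk1 has 3 such copies, and Gpi1, Tpi1, Pgam1, Eno1, Pkm, Ldhb and Pdhb have 1 each. Pgk1, phosphoglycerate kinase, which makes ATP, fell from 1295 and 1281 TPM without doxycycline to 898 and 904 TPM with it (log2 change -0.52, SE 0.06, limma adjusted p = 1.0e-04). Pgam1, phosphoglycerate mutase, fell from 337 ± 11.98 to 238 ± 0.0572 TPM (SD, n = 2, log2 change -0.50, SE 0.06, limma adjusted p = 6.9e-05). Relative to Gapdh within each library, the ratio of Aldoa was 0.489 and 0.516 without doxycycline and 0.265 and 0.263 with it. That of Tpi1 was 0.316 and 0.374 without doxycycline and 0.198 and 0.201 with it, and that of Pgk1 0.358 and 0.401 without doxycycline and 0.267 and 0.286 with it. In each of these 3 ratios the groups did not overlap, and such ratios do not depend on the scaling of the libraries. Since the pairs were chosen after their values were seen, the separation is a description and no test.

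Enolase showed opposite calls for 2 of its genes. Eno1, the widely expressed isoform and one of the most abundant members, stood at 2860.2 and 2789 TPM without doxycycline and 2386 and 2406 TPM with it and passed as lower (log2 change -0.24, SE 0.08, limma adjusted p = 0.022). That call was lost without DOX replicate 1 (adjusted p = 0.12), without DOX replicate 2 (0.11), under median-of-ratios scaling (0.079) and with no filter on low values (0.11), over a range of 0.0069 to 0.12. Eno3, known as the muscle isoform, rose from 92.7 and 82.8 TPM without doxycycline to 136 and 129 TPM with it (log2 change 0.59, SE 0.07, limma adjusted p = 7.9e-05), the largest rise of a called member. The ratio of Eno1 to Eno3 was 30.9 and 33.7 without doxycycline and 17.6 and 18.6 with it, and Eno3 went from 3.01% ± 0.181 to 5.24% ± 0.203 (SD, n = 2) of the enolase sum. Eno1 was the main isoform in every library. Eno1b, a separate row for a near-identical copy of Eno1, stood at 3.16 and 5.24 TPM without doxycycline and 3.01 and 2.64 TPM with it and did not pass (limma adjusted p = 0.083). Eno2, the neuronal isoform, was at most 0.320 TPM in any library and was not tested. Aldoc, the brain-type aldolase, had a mean just under the limit for testing, with 1.27 and 0.981 TPM without doxycycline and 0.282 and 0.766 TPM with it, while Pfkfb1 had the lowest mean above it. Pkm, which encodes the pyruvate kinase isoforms M1 and M2 from 1 gene, was the most abundant member and stood at 5163 and 4993 TPM without doxycycline and 4136 and 3832 TPM with it (log2 change -0.35, SE 0.09, limma adjusted p = 0.0077). Values per gene do not separate the 2 isoforms. The call on Pkm was lost without DOX replicate 2 (adjusted p = 0.083) and with no filter (0.10), over a range of 0.0011 to 0.10.

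All 4 genes of lactate formation and export fell. Ldha, which encodes the lactate dehydrogenase subunit that favours making lactate, stood at 2235 and 2005 TPM without doxycycline and 1179.9 and 1193 TPM with it (log2 change -0.83, SE 0.08, limma adjusted p = 1.6e-05). Ldhb, the subunit that favours lactate use, was far lower in level and fell too, from 28.7 and 26.3 TPM without doxycycline to 18.9 and 16.4 TPM with it (log2 change -0.62, SE 0.09, limma adjusted p = 3.6e-04). Ldha supplied between 98.4% and 98.7% of the summed TPM of the pair in every library, so the subunit balance moved little while the sum fell to 0.561 of the control mean. Slc16a3, which encodes MCT4, a lactate exporter of glycolytic cells, fell from 348 ± 10.8 to 190.3 ± 2.09 TPM (SD, n = 2), with 356 and 341 TPM without doxycycline and 192 and 189 TPM with it (log2 change -0.87, SE 0.06, limma adjusted p = 2.0e-06). Slc16a1, which encodes MCT1, a transporter working in both directions, showed a smaller fall at 185 and 180.0 TPM without doxycycline and 157 and 164 TPM with it (log2 change -0.19, SE 0.06, limma adjusted p = 0.020). That call was lost without control replicate 1 (adjusted p = 0.063), without DOX replicate 1 (0.16), without a mean-variance trend (0.058) and under median-of-ratios scaling (0.11, log2 change -0.12), over a range of 0.0062 to 0.16. The ratio of Slc16a3 to Slc16a1 was 1.92 and 1.89 without doxycycline and 1.22 and 1.15 with it. MCT4 remained the more abundant of the 2 transcripts, by a smaller margin.

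The plot of paralog shares sets these families side by side. Shares of TPM describe transcripts only, and no test was made of them.

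**Figure D4:**
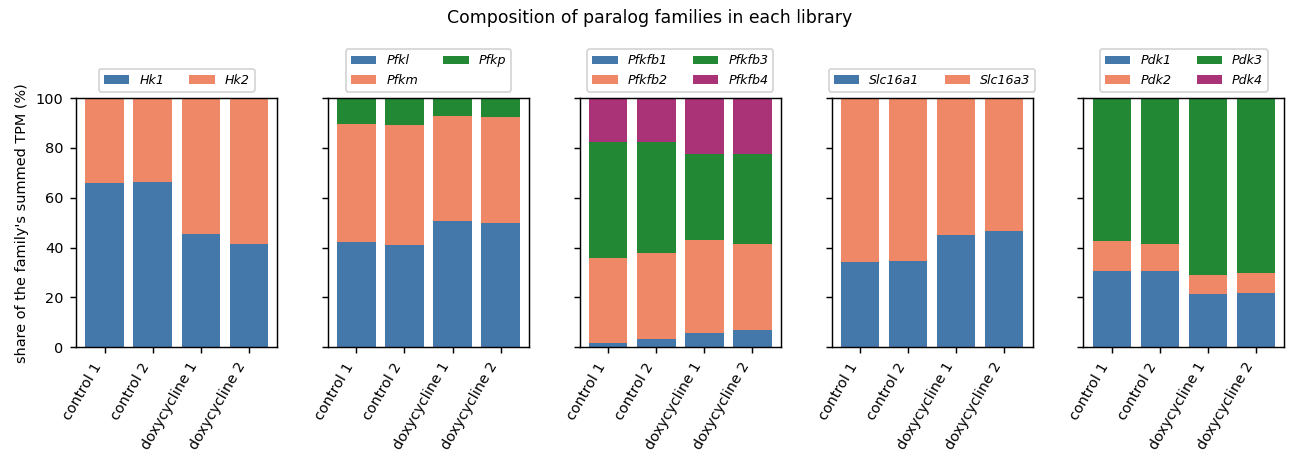
Share of each paralog in its family's summed TPM in each library (stacked bars, percent), for the hexokinases, phosphofructokinase subunits, PFKFB enzymes, monocarboxylate transporters and pyruvate dehydrogenase kinases. Hk1 went from 66.2% to 43.4% and Pdk3 from 57.9% to 70.6% on average, with replicates close to each other.

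At the entry of pyruvate into oxidation, 2 subunit genes of pyruvate dehydrogenase rose, and 3 kinase genes and 1 phosphatase gene that regulate it fell. Pdha1, the catalytic alpha subunit of pyruvate dehydrogenase and the target of its kinases, rose from 107 and 110.5 TPM without doxycycline to 138 and 140.1 TPM with it (log2 change 0.35, SE 0.06, limma adjusted p = 6.2e-04). Pdhb, the beta subunit, rose from 169.6 ± 9.61 to 216 ± 30.2 TPM (SD, n = 2), with 163 and 176 TPM without doxycycline and 194 and 237 TPM with it (log2 change 0.34, SE 0.09, limma adjusted p = 0.0095). The rise of Pdhb leaned on DOX replicate 2, without which the log2 change was 0.20 (adjusted p = 0.084), and the call was also lost without control replicate 1 (0.089) and with no filter (0.064), over a range of 2.3e-04 to 0.089. The 2 treated libraries nevertheless lay above the 2 controls for both subunits.

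Pyruvate dehydrogenase kinases phosphorylate and inactivate the complex, and 3 of the 4 kinase genes were expressed. Pdk1 stood at 46.0 and 48.3 TPM without doxycycline and 22.3 and 23.9 TPM with it (log2 change -0.998, SE 0.07, limma adjusted p = 3.9e-06). Pdk2 stood at 18.4 and 17.4 TPM without doxycycline and 8.30 and 8.91 TPM with it (log2 change -0.98, SE 0.09, limma adjusted p = 2.0e-05). Treated levels were 0.490 and 0.480 of the control means, and the groups of neither gene overlapped. Pdk3, the most abundant kinase gene here, fell by less, from 86.7 and 92.2 TPM without doxycycline to 74.8 and 77.4 TPM with it (log2 change -0.23, SE 0.06, limma adjusted p = 0.011). The call on Pdk3 was lost with control replicate 2 left out (adjusted p = 0.054) or DOX replicate 1 left out (0.073), over a range of 0.0063 to 0.073. Of the summed kinase TPM, Pdk3 supplied 57.4% and 58.4% without doxycycline and 70.9% and 70.2% with it. Pdk4, a kinase known for its rise on fasting, was listed at 0 in all 4 libraries. Pdp1, which encodes the phosphatase subunit that reactivates the complex, also fell, from 7.25 and 8.16 TPM without doxycycline to 4.66 and 4.33 TPM with it (log2 change -0.66, SE 0.12, limma adjusted p = 9.7e-04). So the 3 expressed kinase genes and this phosphatase gene passed as lower, while Pdha1 and Pdhb passed as higher. Of the other genes of the complex and its phosphatases, Dld passed as higher (log2 change 0.68, limma adjusted p = 7.1e-06). Those that did not pass were named after their values were seen. They were the subunit genes Dlat (log2 change 0.054, limma adjusted p = 0.52) and Pdhx (0.12, adjusted p = 0.16) and the phosphatase genes Pdp2 (0.11, 0.32) and Pdpr (0.083, 0.41). Pdhx passed as higher under median-of-ratios scaling (adjusted p = 0.042) and quantile normalization (0.030), over a range of 0.030 to 0.53, and Pdp2 under the latter (0.012, range to 0.65).

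Ratios within a library show how far these genes moved apart. The ratio of Pdk1 to Pdha1 was 0.429 and 0.437 without doxycycline and 0.162 and 0.170 with it. That of Pdk2 to Pdha1 was 0.172 and 0.158 without doxycycline and 0.0602 and 0.0636 with it, and that of Ldha to Pdha1 20.8 and 18.1 without doxycycline and 8.55 and 8.52 with it. In all 3 the groups stood apart, with the treated ratios below the control ratios. The ratio of Slc2a1 to Pdha1 went the same way, from 2.36 to 0.894 on average.

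**Figure D5:**
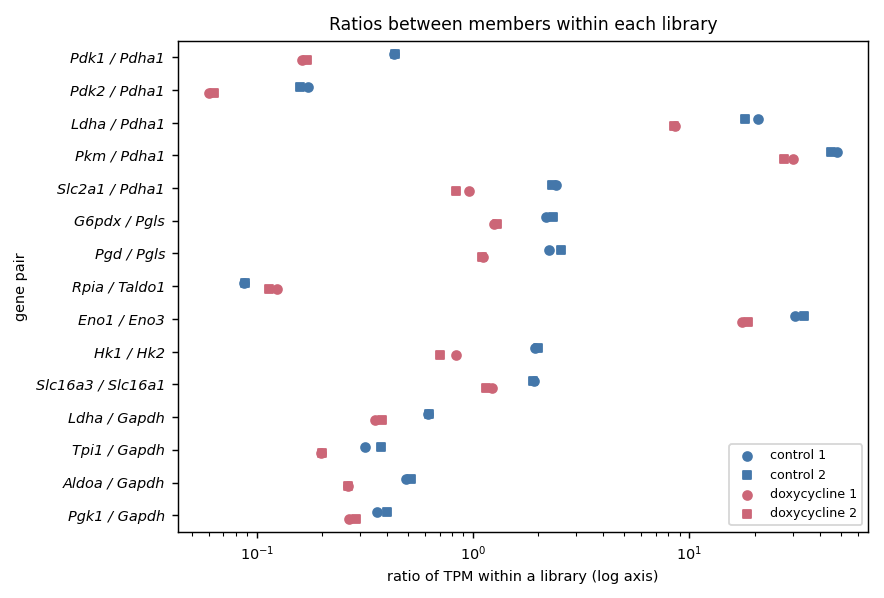
Ratio of the TPM of 2 members within each library (log axis), for 15 gene pairs, controls in blue and doxycycline in red. Rpia to Taldo1 is the one pair drawn in which the treated ratios lie above the controls, and in the other 14 pairs they lie below. The direction depends on which gene was set as numerator, and the pairs were chosen after their values were seen.

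The pentose phosphate pathway was mixed in direction. In the oxidative arm, G6pdx, glucose-6-phosphate dehydrogenase, which commits glucose to the pathway and makes NADPH, fell from 238 and 220.0 TPM without doxycycline to 187 and 191 TPM with it (log2 change -0.28, SE 0.06, limma adjusted p = 0.0038). Pgd, the second NADPH-making dehydrogenase, fell from 246 and 241 TPM without doxycycline to 167 and 163 TPM with it (log2 change -0.56, SE 0.06, limma adjusted p = 2.8e-05). Pgls, the lactonase that works between these 2 dehydrogenases, rose from 110.2 and 94.5 TPM without doxycycline to 149.7 and 147 TPM with it (log2 change 0.54, SE 0.08, limma adjusted p = 2.5e-04). The 3 genes of 1 short linear chain thus had opposite calls: the ratio of Pgd to Pgls was 2.23 and 2.55 without doxycycline and 1.11 and 1.10 with it, and that of G6pdx to Pgls 2.16 and 2.33 without doxycycline and 1.25 and 1.29 with it. The controls spread more than the treated libraries in Pgls, but the groups did not overlap.

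In the non-oxidative arm 1 gene rose and 2 did not pass. Rpia, which encodes the isomerase that makes ribose 5-phosphate for nucleotides, rose from 31.0 and 30.2 TPM without doxycycline to 43.9 and 40.4 TPM with it (log2 change 0.45, SE 0.07, limma adjusted p = 6.3e-04). Tkt, transketolase, stood at 168 and 146 TPM without doxycycline and 148 and 145 TPM with it, with overlapping groups (log2 change -0.094, SE 0.07, limma adjusted p = 0.29, 95% interval -0.26 to 0.074). Tkt turned on the controls: without control replicate 2 it passed as lower (log2 change -0.19, adjusted p = 0.034) and without control replicate 1 the log2 change was 0.0063 (adjusted p = 0.93), over a range of 0.034 to 0.93. Taldo1, transaldolase, was nearly level at 355 and 344 TPM without doxycycline and 356 and 357 TPM with it (log2 change 0.028, SE 0.06, limma adjusted p = 0.69, 95% interval -0.10 to 0.16), and its sign turned under quantile normalization (log2 change -0.076). Rpia to Taldo1 within a library was 0.0874 and 0.0878 without doxycycline and 0.123 and 0.113 with it.

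Promoter sequences of members show whether genes that moved together share short motifs. The RefSeq promoter table, on build GRCm38.p6, held 57 windows for 37 of the 39 members, several for genes with more than 1 annotated start. The 250 bases before each start were searched on both strands for ACGTG, the core that HIF-1 is known to bind, and for CACGTG, the E-box bound by MYC and others, in which ACGTG matches on both strands. ACGTG was found in 17 of 40 windows of members that fell, in 1 of 5 of members that rose and in 1 of 8 of members that did not pass. In all windows of that length in the table the share was 16.6%, against 42.5% of the windows of members that fell. By gene, ACGTG was in 13 of the 24 members that fell with a window and in 4998 of all 27025 genes with windows. That background was not limited to genes tested or matched for base content. CACGTG was found in 6 of 40 windows of members that fell and in 6.02% of all windows. GCGTG, the other form of the HIF-1 core, was in 28.2% of all windows. It was in 5 of 5 windows of members that rose. Among members that fell it was in 21 of 40, and among those that did not pass in 4 of 8. A match is a description of the letters and shows no binding. Windows of 1 gene can overlap each other.

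Selected windows are given 5′ to 3′ on the strand of the gene, with matches to ACGTG on either strand in capitals. Ldha, Pgk1 and Slc2a1 are shown as members that fell and hold ACGTG. Pfkp is shown as the member with the largest fall and no ACGTG, and Pdha1 and Pgls as members that rose. GCGTG is not capitalised.
Ldha (chr7:46845554-46845803, plus strand): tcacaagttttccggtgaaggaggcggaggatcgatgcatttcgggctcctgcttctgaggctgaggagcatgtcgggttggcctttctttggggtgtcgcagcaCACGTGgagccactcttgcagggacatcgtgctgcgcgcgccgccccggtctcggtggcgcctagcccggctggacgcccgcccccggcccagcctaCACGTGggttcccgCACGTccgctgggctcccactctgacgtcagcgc
Pgk1 (chrX:106186850-106187099, plus strand): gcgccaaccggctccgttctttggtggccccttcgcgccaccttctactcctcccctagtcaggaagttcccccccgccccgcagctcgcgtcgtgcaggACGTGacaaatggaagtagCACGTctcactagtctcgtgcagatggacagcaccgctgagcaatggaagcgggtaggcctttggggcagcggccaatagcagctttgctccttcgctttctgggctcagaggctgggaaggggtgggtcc
Slc2a1 (chr4:119108495-119108744, plus strand): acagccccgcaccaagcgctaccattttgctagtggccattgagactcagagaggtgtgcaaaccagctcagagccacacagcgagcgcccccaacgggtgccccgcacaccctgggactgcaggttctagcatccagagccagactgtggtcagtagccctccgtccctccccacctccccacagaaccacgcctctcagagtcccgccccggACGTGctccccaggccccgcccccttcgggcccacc
Pfkp (chr13:6648772-6649021, minus strand): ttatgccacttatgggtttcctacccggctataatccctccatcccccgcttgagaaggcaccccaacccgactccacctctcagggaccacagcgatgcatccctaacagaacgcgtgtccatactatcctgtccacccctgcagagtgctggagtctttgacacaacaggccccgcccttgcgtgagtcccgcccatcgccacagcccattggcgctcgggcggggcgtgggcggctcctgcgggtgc
Pdha1 (chrX:160138431-160138680, minus strand): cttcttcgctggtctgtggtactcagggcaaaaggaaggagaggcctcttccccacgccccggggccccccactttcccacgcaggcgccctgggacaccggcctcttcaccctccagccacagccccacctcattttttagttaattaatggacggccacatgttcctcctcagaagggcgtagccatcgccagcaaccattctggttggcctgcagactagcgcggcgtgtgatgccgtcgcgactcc
Pgls (chr8:71591934-71592183, plus strand): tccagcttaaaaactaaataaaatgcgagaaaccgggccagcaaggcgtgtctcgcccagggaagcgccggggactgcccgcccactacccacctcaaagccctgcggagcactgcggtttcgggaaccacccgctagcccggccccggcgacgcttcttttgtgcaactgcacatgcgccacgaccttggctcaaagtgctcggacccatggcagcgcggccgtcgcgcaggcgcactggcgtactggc
The Ldha window, at the first of its 2 annotated starts, holds CACGTG at 2 places and 1 further ACGTG, and the second Ldha window holds none. Pgk1 has 2 separate matches and Slc2a1 has 1. So ACGTG was present in some members with large falls and absent from the Pfkp window, where the fall was largest. It was also absent from every window of Hk1, Pdk1, Gpi1, Tpi1 and Pfkl, which fell. Pdhb, which rose, and Hk2, which did not pass, hold ACGTG and are not shown. The Pfkp window does hold GCGTG, the other form of the HIF-1 core.

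Other genes of the same and neighbouring pathways place the members in context, and their counts are read beside the background of 29.0% rising and 35.4% falling among all genes tested. Among other glycolytic isozymes and sugar or lactate carriers, 3 of 15 tested genes rose and 8 fell (median log2 change -0.41), and 16 of 31 were below 1 TPM, where the median over all genes tested was -0.043. Emb, which encodes embigin, a chaperone of monocarboxylate transporters, fell by 1.41 on the log2 scale, Pgam2 and Slc2a8 fell (log2 change -1.07 and -1.01), and Adpgk, an ADP-dependent glucokinase, rose from 57.7 and 55.6 TPM without doxycycline to 111 and 109 TPM with it (limma adjusted p = 1.6e-06). Among other genes of pyruvate entry and conversion, 5 of 12 tested genes rose and 2 fell (median log2 change 0.12). Dld, the dihydrolipoamide dehydrogenase that serves the pyruvate dehydrogenase complex, rose from 168 and 169.7 TPM without doxycycline to 271 and 271 TPM with it, whereas its subunit genes Dlat and Pdhx, as given above, did not pass. Mpc2, a subunit of the mitochondrial pyruvate carrier, and Gpt2, which links pyruvate and alanine, rose as well (log2 change 0.53 and 1.61), while Pcx, pyruvate carboxylase, fell (-0.41). Among other pentose and ribose phosphate genes, 4 of 10 tested genes rose and 4 fell (median log2 change -0.042), with 2 falling when control replicate 2 or DOX replicate 2 was left out or under quantile normalization. H6pd, the endoplasmic reticulum counterpart of G6pdx, fell (log2 change -1.03), as did Prps2 (-0.59), whereas Rpe, the epimerase beside Rpia, and Prps1, which makes phosphoribosyl pyrophosphate, rose (0.49 and 0.86).

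Pathways fed by glycolytic intermediates held genes with calls in both directions, as did all genes tested, of which 29.0% rose and 35.4% fell. In the tricarboxylic acid cycle 7 of 18 tested genes rose and 3 fell (median log2 change 0.045), 4 of them rising when DOX replicate 2 was left out, with Idh2 falling (log2 change -1.14), Sucla2 falling (-0.49) and Suclg2 and Idh3g rising (0.58 and 0.48). The call on Suclg2 was lost with no filter and with a robust fit (adjusted p = 0.054 in both, range 1.0e-04 to 0.054). Of glycogen genes, 4 of 16 tested genes rose and 8 fell (median log2 change -0.20). Gys1, glycogen synthase, rose from 44.1 and 39.5 TPM without doxycycline to 209 and 212 TPM with it, and Stbd1, a glycogen-binding protein, rose from 57.6 and 48.3 TPM without doxycycline to 265 and 279 TPM with it, while Gbe1, the branching enzyme, and Pgm1 fell (log2 change -1.39 and -1.22). In the serine, glycerol and hexosamine branches 6 of 12 tested genes rose and 5 fell (median log2 change 0.38). These calls split by branch: every tested gene of the serine branch rose and every tested gene of the glycerol branch fell. Psph, the last enzyme of serine synthesis, rose furthest of the serine genes (log2 change 1.43). Of hexosamine synthesis, Gnpnat1 rose (1.88) and Gfpt2 and Uap1 fell (-1.93 and -1.12). Gfpt1, which encodes the same first step as Gfpt2 and is named after its values were seen, had 69.7 and 75.2 TPM without doxycycline and 75.9 and 75.9 TPM with it and did not pass (limma adjusted p = 0.39), while Gfpt2 had 10.8 and 10.2 TPM without doxycycline and 1.79 and 2.25 TPM with it. Of 7 gluconeogenesis genes listed, 5 were below 1 TPM and were not tested, and the other two, Pck2 (log2 change 1.38) and G6pc3 (0.37), rose. Among other genes linked to NADPH or its precursor NADP, folate enzymes included, 5 of 9 tested genes rose and 4 fell (median log2 change 0.31). Not all of these genes make NADPH, and some sources of it, such as Idh2, are counted in other lists. Idh1, a cytosolic source, fell from 116 and 137 TPM without doxycycline to 46.4 and 46.5 TPM with it. The NAD kinase gene Nadk2 fell (-0.85), and the mitochondrial folate enzymes Aldh1l2 and Mthfd2 rose (2.11 and 1.58).

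Of known regulators of glycolytic genes, 2 of 16 tested genes rose and 11 fell (median log2 change -0.31), which is 68.8% falling beside 35.4% of all genes tested. Hif1a, the oxygen-regulated subunit of HIF-1, stood at 297 and 346 TPM without doxycycline and 186 and 197 TPM with it (log2 change -0.74, SE 0.08, limma adjusted p = 3.6e-05), a measure of its transcript and not of its protein, which is controlled by degradation. Its partner Arnt fell (log2 change -0.39), and so did the prolyl hydroxylase genes Egln1 and Egln3 (-0.94 and -1.30) and the ubiquitin ligase subunit Vhl (-0.29). The call on Vhl was lost without DOX replicate 1 (adjusted p = 0.052) and under quantile normalization (0.058), over a range of 0.0069 to 0.058. Egln2 and the asparaginyl hydroxylase gene Hif1an did not pass (-0.080 and -0.039, limma adjusted p = 0.33 and 0.70), and the sign of Hif1an turned under 2 of the scalings. Myc moved the other way, from 168 and 147 TPM without doxycycline to 495 and 558 TPM with it (log2 change 1.74, SE 0.08, limma adjusted p = 2.8e-07), and Trp53 rose too (log2 change 0.75). Among the glucose-sensing factors, Mlxip and its target Txnip fell (-0.27 and -0.31), and Mlx did not pass (-0.031, adjusted p = 0.69, limma). Foxo3, Foxo1, Nfe2l2 and Esrra fell (-1.38, -0.31, -0.61 and -0.42), the call on Foxo1 being lost under quantile normalization (adjusted p = 0.081). Among other genes known to be hypoxia-inducible, 2 of 19 tested genes rose and 16 fell (median log2 change -0.83), which is 84.2% falling beside 35.4% of all genes tested, with Bhlhe40 (-2.47), Bnip3 (-2.46), Ankrd37 (-2.39) and Plod2 (-1.53) falling furthest. The 2 that rose, named after their values were seen, were Ndrg1, with 167 and 156 TPM without doxycycline and 387 and 435 TPM with it (log2 change 1.34, limma adjusted p = 5.6e-07), and Ero1a, with 117 and 127 TPM without doxycycline and 235 and 272 TPM with it (1.05, adjusted p = 4.5e-06).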

How the data were processed

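Gene expression was measured by RNA sequencing in 4 libraries, with total RNA made into mRNA libraries per the labels' protocols. The authors deposited 1 table of TPM and 1 of FPKM, named so in the deposited tables, with genes by symbol. The submitters' processing notes give the build as mm39. No source used here states the aligner, the quantifier or the annotation. Groups and replicate numbers came from the sample titles.

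The 11359 of 22186 genes that averaged 1 TPM or more were fitted on log2(TPM + 1) with limma 3.58.1 in R 4.3.3 (mean-variance trend, 2 against 2 libraries, no covariate). Changes on this scale understate those of low genes. P-values were adjusted by Benjamini-Hochberg over all genes tested. They set each change against a spread between these samples that limma largely shares across genes (prior degrees of freedom 6.98, residual 2). The labels do not detail the origin of the cultures further. Tables and figures used Python 3.11.15. Pseudogenes were sought with blastn 2.17.0 in GENCODE M21, which is on an earlier build. Of 39 members, 9 had at least 1 such copy. Strand use in counting is not given: antisense exons cover 16.1% of the exon bases of Pdha1, 13.6% of G6pdx and 11.5% of Gpi1, and less of the other members.

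The members and lists were chosen with earlier results of these data known. All members are named, with up to 4 passing genes of each other list and every tested regulator. Alternatives were other pseudocounts (0.1 and 0.5), filters (none and 5 TPM), FPKM, other scalings and variance models, a replicate block, and each library left out, where a lone library is assumed to vary like the other group.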

Additional observations from a re-analysis of the deposited data

How the results depend on the processing

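Over 15 alternatives the count of members that fell ran from 21 to 25 and of those that rose from 4 to 6, while 44.3% to 66.7% of all genes tested were called. Of 523 values for single members, 493 kept direction and side of the threshold, 21 lost the call, 5 gained one and 4 changed sign. Of 30 called members, 24 kept their call under every alternative run, the exceptions being Eno1, Pdhb, Pdk3, Pfkfb4, Pkm and Slc16a1. The median log2 change of the members was -0.54 with a mean of at least 5 TPM, -0.49 from FPKM, -0.45 under median-of-ratios scaling and -0.41 under quantile normalization, and ran from -0.54 to -0.50 with single libraries left out; the stricter filter tests fewer members, and otherwise the cause was not tested. Signs changed for Gapdh under median-of-ratios scaling (0.0083) and without control replicate 1 (range with single libraries left out -0.15 to 0.030), for Tkt without control replicate 1 (range -0.19 to 0.0063) and for Taldo1 under quantile normalization (-0.076), and the cause was not tested. Of 49 named genes of the other lists that were called, 46 kept their call under every alternative run. Of those not called, Hif1an changed sign under median-of-ratios scaling (0.026), quantile normalization (0.11) and without control replicate 1 (range with single libraries left out -0.090 to 0.011), Mlx under median-of-ratios scaling (0.036) and without DOX replicate 2 (range with single libraries left out -0.063 to 0.00060), Dlat without DOX replicate 2 (range -0.017 to 0.12) and Pdpr without control replicate 2 (range -0.0019 to 0.17); the cause was not tested. With a replicate block, 6 members rose and 25 fell and 66.0% of genes were called, with Pfkfb1 the added call (adjusted p = 0.035). The correlation over genes of the 2 groups' replicate differences was -0.0053, so no shared effect of the replicate number was seen. Whether same-numbered samples were handled together cannot be settled by that value, and the labels do not detail it. Depth is unknown, so no counting error can be given for low genes.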
